A study of Mus musculus with 3 samples.

Results

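The mitochondrial carriers of the SLC25 family are proteins of the inner mitochondrial membrane that exchange nucleotides, phosphate, amino acids, carboxylates, cofactors and iron between the cytosol and the matrix. The members described here were chosen by name alone: every gene probe whose gene name on the array was Slc25a followed by a number. The rule found 42 genes, covered by 73 probes, of 19712 genes that the array could name. The study compared adult liver, fetal liver and bone marrow of C57BL/6 mice, using total RNA on 3 Agilent expression arrays in a single-dye (Cy3) design. The adult liver came from mice aged 12 weeks and the fetal liver from day 13.5 of gestation; the labels do not settle whether the bone marrow donors were also 12 weeks old, and neither sex nor pooling of animals is stated. Each tissue was measured on 1 array, so there is no spread between animals, and every difference given here describes these 3 RNA samples without a test.

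Carriers of this family share a fold in which the substrate binds in a central cavity that opens in turn to either side of the membrane. In hepatocytes they link matrix and cytosol for the urea cycle, for the export of citrate towards fatty acid synthesis, for the shuttling of reducing equivalents and for the entry of fatty acids bound to carnitine. In the red cell lineage a smaller set brings iron and glycine into the matrix, where the first and last steps of heme synthesis take place. The fetal liver at mid-gestation is a blood-forming organ as well as a liver, and bone marrow is the blood-forming organ of the adult.

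A level is given as a scaled signal, which is the processed signal of the probe divided by the 75th percentile of the gene spots on its array. That percentile was 296 in adult and 387 in fetal liver and 894 in marrow, and 52.6% to 58.8% of gene spots were well above background. The scale is linear, a fold is the ratio of the scaled signals of 1 probe on 2 arrays, and levels of different genes are not compared because probes differ in brightness. A difference counted when it reached 4-fold. Where the probe of a gene was dim, that is not well above background, on 1 of the 2 arrays, the ratio is a minimum and is given as "at least"; no ratio was formed when it was dim on both. The error that the scanner software attached to a spot came to 0.20 on the log2 scale for the median member's difference and at most 0.41, and it covers reading a spot, not animals. The RNA came from whole tissue, so fewer cells of a type and less RNA per cell cannot be told apart.

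The tissues carried the markers of their labels. The summed scaled signal of 7 hepatocyte markers, albumin among them, was 2125 in adult and 387 in fetal liver and 0.569 in marrow, where the probes of Alb, Ttr, Apoa1 and Apob were not well above background. That of 6 erythroid markers was 110.4, 1514 and 931. That of 6 granulocyte markers was 2.72, 146 and 1658, and that of 4 genes of dividing cells 0.533, 229 and 186. Of the other lists, 5 B cell markers summed to 1.40, 1.67 and 75.7, 4 macrophage markers to 20.9, 4.39 and 19.5, and 4 adipocyte markers to 0.109, 0.0365 and 2.82. The macrophage sums rest mostly on different genes, Clec4f in adult liver (13.0) and Adgre1 in marrow (13.9). Of the adipocyte markers only Adipoq was well above background, in marrow alone at 2.80. The 5 striated muscle markers summed to 0.296, 1.71 and 3.58, and the 4 testis markers to 0.507, 0.560 and 0.738. The part that these cell types have in the differences below was not tested.

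Of the 42 members, 34 were well above background on all 3 arrays and 5 on some of them. The remaining 3 were well above background on none: Slc25a18, a glutamate carrier, Slc25a31, the ADP/ATP carrier known from testis, and Slc25a41, an ATP-Mg/phosphate carrier. In all, 18 members differed at least 4-fold in 1 or more of the comparisons. Adult liver stood at least 4-fold above both blood-forming tissues for 9 members, against 11.8% of all genes compared. These were Slc25a1, Slc25a10, Slc25a13, Slc25a15, Slc25a20, Slc25a22, Slc25a23, Slc25a25 and Slc25a44. With the spike-in scaling described below, only Slc25a15 and Slc25a25 of these stayed 4-fold above marrow, and Slc25a20 and Slc25a44 lay below it. With 37 members compared in this way, Slc25a24 and Slc25a37 were at least 4-fold below both others in adult liver (7.94% of all genes). Slc25a13 and Slc25a15 were at least 4-fold below both in bone marrow (6.14%), but with spike-in scaling marrow stood only 0.09 and 0.08 in log2 below fetal liver. Only Slc25a35 among them was at least 4-fold highest in fetal liver (1.88% of all genes) and only Slc25a24 in bone marrow (5.69%), and none was lowest in fetal liver by that margin (1.72%).

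**Figure D1:**
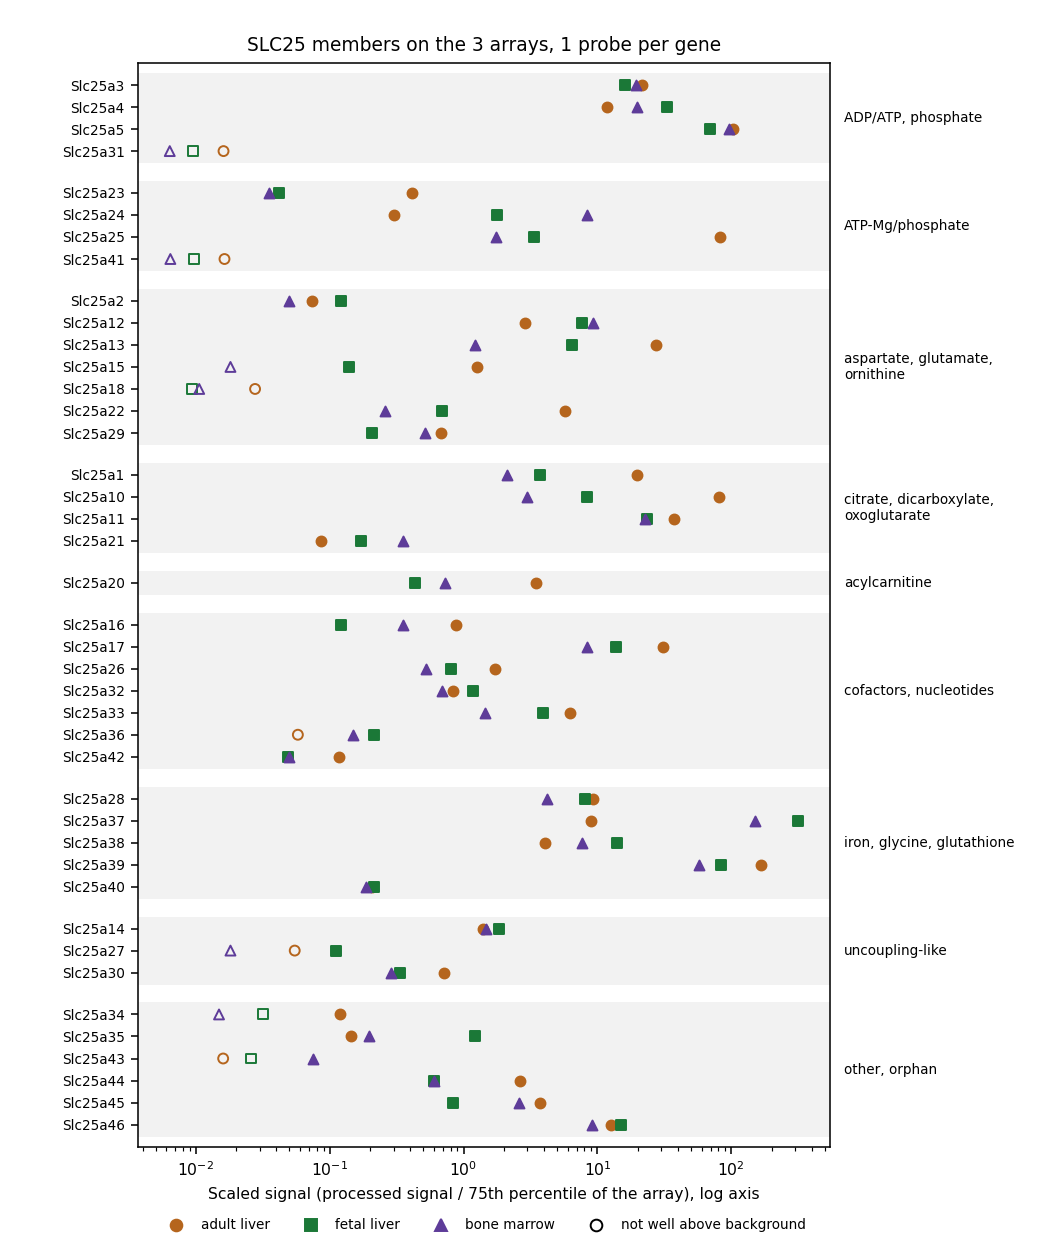
Scaled signal of 41 SLC25 members on the 3 arrays (x axis, log scale, processed signal divided by the array's 75th percentile; 1 probe per gene, 1 array per tissue, no error bars), grouped by what the carriers transport. Slc25a37 runs from 8.99 in adult liver to 318 in fetal liver, while Slc25a25 runs the other way, from 82.8 to 3.39; open symbols are not well above background.

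Between fetal and adult liver, 38 members could be compared. Of these, 3 were at least 4-fold higher in fetal liver (7.9% of members; 12.0% of 14185 genes) and 11 in adult liver (28.9% of members; 14.2% of genes). The median member was 1.60-fold lower in fetal liver, a log2 difference of -0.68, beside a median of 0.05 for all genes. Scaled to spike-in RNA in place of the 75th percentile, 6 members were higher in fetal and 7 in adult liver, and with normexp background correction 1 and 6. Normexp took Slc25a13, Slc25a16, Slc25a23, Slc25a44, Slc25a45, Slc25a24 and Slc25a35 below 4-fold, and spike-ins Slc25a1, Slc25a13, Slc25a44 and Slc25a45. The members nearest the threshold were Slc25a13, 4.28-fold higher in adult liver, on the inside, and Slc25a38, 3.45-fold higher in fetal liver, on the outside.

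Between fetal liver and bone marrow, 38 members were compared and 23 lay within 2-fold. Of these 38, 4 were at least 4-fold higher in fetal liver (10.5% of members; 9.29% of 14680 genes) and 1 in bone marrow (2.6% of members; 8.32% of genes). The split of 4 to 1 depended on the scaling: it was 1 to 2 when arrays were scaled to their median and 0 to 16 when scaled to spike-ins. The median log2 difference was 0.59 (0.26 for all genes), and -1.75 with spike-ins. Nearest the threshold were Slc25a27, at least 4.22-fold higher in fetal liver but below 4-fold in the 5 alternatives that gave it a value, and Slc25a45, 3.13-fold higher in bone marrow.

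Between adult liver and bone marrow, 11 of 38 members were 4-fold or more higher in adult liver (28.9% of members; 18.8% of 14245 genes) and 3 in bone marrow (7.9% of members; 15.0% of genes). That split was 7 to 4 with median scaling and 2 to 19 with spike-ins, where Slc25a15 and Slc25a25 alone stayed 4-fold above marrow (log2 2.71 each). The median member was 1.89-fold higher in adult liver, a log2 difference of 0.92 (0.09 for all genes), which turned to -2.13 with spike-ins. Scaling to spike-ins adds a constant to every log2 difference, which is -2.31 for fetal liver against marrow, -2.85 for adult liver against marrow and 0.54 for fetal against adult liver. How much spike-in RNA each sample received is not given in the sources used here, so these values hold only if the amounts per RNA were equal. It moved the median of all genes by -2.36, -2.82 and 0.50 in turn. The members' median less that of all genes was -0.73, 0.33 and 0.83 for fetal against adult liver, fetal liver against marrow and adult liver against marrow, and -0.68, 0.35 and 0.60 with spike-ins. The 3 comparisons share arrays and are not independent of each other. Nearest the threshold were Slc25a21, 4.05-fold higher in bone marrow, and Slc25a17, 3.69-fold higher in adult liver and turned with spike-ins.

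**Figure D2:**
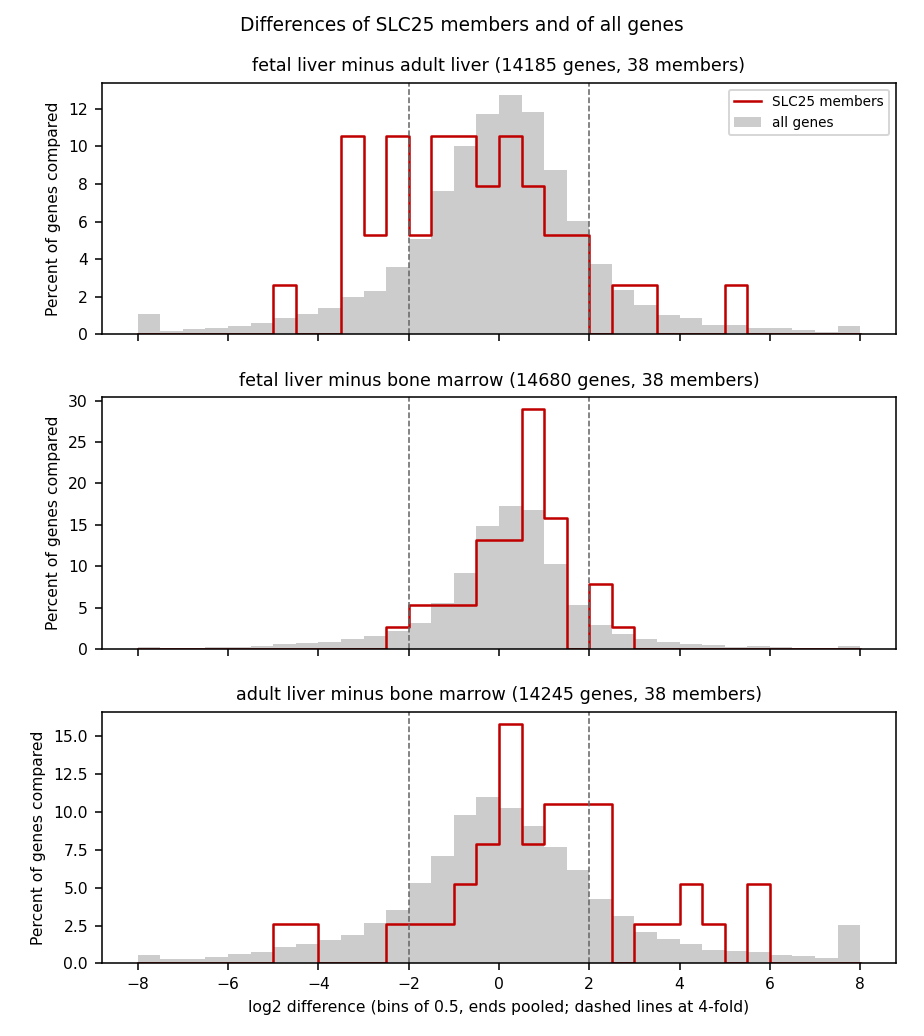
Distribution of log2 differences (x axis, bins of 0.5) for all genes compared (grey) and the SLC25 members (red line), as percent of genes (y axis), 1 panel per comparison; dashed lines mark 4-fold. The members' median lies at -0.68, 0.59 and 0.92 from top to bottom, beside 0.05, 0.26 and 0.09 for all genes; with spike-in scaling the members' medians of the lower panels turn to -1.75 and -2.13.

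The carriers that feed heme and iron-sulphur synthesis held, with 1 probe per gene, the largest difference of any member between fetal and adult liver. Slc25a37, mitoferrin-1, which imports iron into the mitochondria of erythroblasts, is read by a probe at chr14:69860020-69860079 (mm9, minus strand). Its scaled signal was 8.99 in adult and 318 in fetal liver and 149.9 in marrow. Both blood-forming tissues were thus high and adult liver low, by 35.4-fold against fetal liver and 16.7-fold against marrow. A second probe of the gene, at chr14:69863195-69863254, read 0.127, 2.04 and 1.42, which is 16.1-fold and 11.2-fold. The related mitoferrin-2, Slc25a28, which serves iron import in other cell types, read 9.22, 8.01 and 4.23 and passed 4-fold nowhere.

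Slc25a38, the carrier that brings in glycine for the first step of heme synthesis, had scaled signals of 4.09 in adult and 14.1 in fetal liver and 7.65 in marrow. Fetal liver stood 3.45-fold above adult liver, short of the threshold. Slc25a39, a glutathione importer of the matrix, read 167 in adult and 84.5 in fetal liver and 57.5 in marrow. Its relative Slc25a40 read 0.206, 0.216 and 0.186. Of these 5 carriers, 1 therefore exceeded adult liver by 4-fold or more in fetal liver and none fell short of it by that much, with a median fold of 1.05. Of the 9 enzymes of heme synthesis, 4 passed 4-fold towards fetal liver, with Ppox at 6.99-fold, Urod at 4.43-fold and Cpox at 4.17-fold among them, while Alas1, which makes the first intermediate outside red cells, was 7.12-fold higher in adult liver. Over the same arrays 5 of 6 erythroid markers passed 4-fold towards fetal liver.

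The aspartate, glutamate and ornithine carriers included 3 of the 11 members that were higher in adult than in fetal liver. Slc25a13, citrin, exports aspartate from the mitochondria of hepatocytes in exchange for glutamate, and its probe lies at chr6:5991482-5991541 (mm9). Its scaled signal was 27.4 in adult and 6.41 in fetal liver and 1.22 in marrow, with 4.28-fold between the livers and 5.26-fold between fetal liver and marrow. The difference between the livers kept 4-fold in 4 of 7 alternatives, the authors' column among them. Also among them were the stricter filter and averaging probes, which cannot change the value of a gene with 1 probe. Median scaling kept it (log2 -2.15), while normexp (-1.99) and spike-ins (-1.56) did not. The difference between fetal liver and marrow fell to 0.09 in log2 with spike-ins. Adult liver stood 22.5-fold above marrow, or 1.64 in log2 and so below 4-fold with spike-ins. Slc25a12, aralar, the form of the same carrier known from muscle and brain, read 2.89, 7.62 and 9.27. By that probe it was lowest in adult liver and passed 4-fold nowhere. A second probe read 0.121, 0.119 and, not well above background, 0.0204, which put adult and fetal liver at least 4.55-fold and 4.50-fold above marrow, so the probes went opposite ways against marrow.

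Slc25a15, the ornithine carrier of the urea cycle, read 1.25 in adult liver and 0.138 in fetal liver and was not well above background in marrow at 0.0181. It was 9.04-fold higher in adult than in fetal liver, and at least 47.2-fold and 5.22-fold above marrow in adult and fetal liver. The latter reached 4-fold in 1 of the 6 alternatives that gave a value, namely averaging probes, which leaves a gene with 1 probe unchanged. It was 1.56 in log2 with normexp, 1.97 with median scaling and 0.08 with spike-ins. Slc25a22, a glutamate carrier, read 5.68, 0.685 and 0.261, which put adult liver 8.29-fold above fetal liver and 21.8-fold above marrow. With spike-ins its difference between adult liver and marrow fell to 1.60 in log2, below 4-fold. The basic amino acid carrier Slc25a29 read 0.672, 0.208 and 0.519 and did not reach 4-fold. Its second probe read 1.06, 0.196 and 0.194, with adult liver 5.42-fold above fetal liver and 5.50-fold above marrow. Slc25a2, a second ornithine carrier, stayed between 0.0492 and 0.121 on all 3 arrays. In the urea cycle, 6 of 6 enzymes were at least 4-fold higher in adult than in fetal liver, led by Cps1 at no less than 2744-fold, Arg1 at 516-fold and Ass1 at 47.8-fold. Of the 4 enzymes of the malate-aspartate shuttle 2 were, Got1 at 7.76-fold and Mdh1 at 6.35-fold. Over the same arrays 7 of 7 hepatocyte markers passed 4-fold towards adult liver.

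Among the carboxylate carriers, both exporters on the path to lipid synthesis were high in adult liver. Slc25a1, the citrate carrier (probe at chr16:17925603-17925662, mm9), read 19.8 in adult and 3.75 in fetal liver and 2.11 in marrow. That is 5.28-fold over fetal liver and 9.35-fold over marrow. Both fell below 4-fold with spike-ins, to -1.86 in log2 for fetal against adult liver and 0.38 for adult liver against marrow. Slc25a10, the dicarboxylate carrier that exchanges malate and succinate for phosphate, read 81.4, 8.40 and 2.98. Adult liver was 9.70-fold above fetal liver and 27.4-fold above marrow, the latter 1.93 in log2 and so below 4-fold with spike-ins. Slc25a11, the oxoglutarate carrier of the malate-aspartate shuttle, read 37.5, 23.5 and 22.8 and stayed within 2-fold. Slc25a21, which carries oxodicarboxylates from lysine and tryptophan breakdown, read 0.0865, 0.172 and 0.350, with marrow 4.05-fold above adult liver. Its adult signal lay near background, and normexp took this difference from -2.02 to -0.61 in log2. All 4 genes listed around cytosolic citrate use and fatty acid synthesis were at least 4-fold higher in adult than in fetal liver. The largest differences were those of Me1 at 81.7-fold, Fasn at 9.78-fold and Acaca at 5.05-fold.

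Slc25a20, the carnitine-acylcarnitine carrier through which long-chain fatty acids enter the matrix, read 3.45 in adult and 0.434 in fetal liver and 0.726 in marrow. Adult liver was 7.94-fold above fetal liver, and 4.75-fold above marrow, a direction that turned with spike-in scaling (log2 -0.60). Its probe lies at chr9:108585399-108585458 (mm9). Of 5 genes of the carnitine shuttle, 3 were also at least 4-fold higher in adult than in fetal liver: Cpt1a, the outer membrane transferase, by 18.7-fold, Crot by 16.0-fold and Cpt2 by 4.97-fold.

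The ATP-Mg/phosphate carriers, which adjust the adenine nucleotide pool of the matrix and mostly respond to calcium, went in opposite directions. Slc25a25 read 82.8 in adult and 3.39 in fetal liver and 1.76 in marrow, so that only adult liver was high. It was 24.5-fold above fetal liver and 47.1-fold above marrow, and a second probe gave 26.4-fold and 34.8-fold. Slc25a24 read 0.301, 1.77 and 8.33, a rising order in which marrow was 4.72-fold above fetal liver and 27.7-fold above adult liver. Fetal liver was 5.87-fold above adult liver, or 1.54 in log2 with its probes averaged. A second Slc25a24 probe was well above background in marrow alone, at 0.0939, at least 1.47-fold above adult liver and 2.42-fold above fetal liver. Slc25a23 read 0.409, 0.0416 and 0.0354, with adult liver 9.83-fold above fetal liver and 11.6-fold above marrow. Its fetal and marrow signals lay near background, and the differences became -1.55 in log2 between the livers with normexp and 0.68 between adult liver and marrow with spike-ins. The probes used for Slc25a25 and Slc25a24 lie at chr2:32270275-32270334 and chr3:108971266-108971325 (mm9). Over the same arrays 6 of 6 granulocyte markers passed 4-fold towards marrow against both livers.

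No carrier of oxidative phosphorylation reached 4-fold with the probe used. Slc25a5, the ADP/ATP carrier of most tissues, read 104 in adult and 69.8 in fetal liver and 96.9 in marrow. Slc25a3, which brings phosphate to ATP synthase, read 21.4, 16.1 and 19.5. Both stayed within 2-fold everywhere with the scaling used and these probes. A second, dimmer Slc25a3 probe put adult liver 2.38-fold above fetal liver and 2.45-fold above marrow. Slc25a4, the ADP/ATP carrier known from heart and muscle, read 11.9, 33.3 and 19.8, short of 4-fold in each comparison. Its second probe read 0.963, 9.54 and 6.89, which put fetal liver 9.90-fold and marrow 7.16-fold above adult liver, so the size of that difference depends on the probe. The uncoupling-like carrier Slc25a14 read 1.39, 1.84 and 1.47. Slc25a30 also passed 4-fold nowhere, and Slc25a27 was well above background only in fetal liver, at 0.112. Outside the Slc25a names, the uncoupling protein Ucp2 read 0.312, 4.06 and 14.4, which is 13.0-fold and 46.2-fold above adult liver in fetal liver and marrow. Ucp1 and Ucp3 were not well above background on any array.

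The carriers of cofactors and nucleotides passed the threshold in few places. Slc25a16, linked to coenzyme A, read 0.875 in adult and 0.122 in fetal liver and 0.351 in marrow. Adult liver was 7.19-fold above fetal liver, or -1.93 in log2 and so below 4-fold with normexp. Slc25a33, a pyrimidine nucleotide carrier, read 6.28, 3.93 and 1.45, with adult liver 4.32-fold above marrow, a direction that turned with spike-in scaling (log2 -0.74). Slc25a17, the coenzyme A carrier of peroxisomes, read 31.0, 13.7 and 8.39 and stayed below 4-fold, while another of its probes put adult liver 4.40-fold above fetal liver. Slc25a26, Slc25a32 and Slc25a42, which carry S-adenosylmethionine, folate and coenzyme A, did not reach 4-fold in any comparison. Slc25a36, a pyrimidine nucleotide carrier, was dim in adult liver, and fetal liver and marrow were at least 3.33-fold and 2.33-fold above it. The median of the 8 carriers was 1.86-fold lower in fetal than in adult liver.

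Among carriers with other or uncertain substrates, Slc25a35 was the member high in fetal liver alone. It read 0.144 in adult and 1.21 in fetal liver and 0.197 in marrow, 8.42-fold and 6.17-fold above the others, at a probe designed on a cDNA clone (chr11:68787730-68787789, mm9). The probe of its RefSeq transcript (chr11:68785799-68785858) was well above background in marrow alone, at 0.0940, and at least 2.42-fold above fetal liver, so the probes went opposite ways between those tissues. With the probes averaged, the log2 difference was 1.31 between the livers and 0.54 between fetal liver and marrow, and with spike-ins the latter was 0.32. Slc25a44, linked to branched-chain amino acids, read 2.66, 0.600 and 0.604. Adult liver was 4.44-fold above fetal liver, and 4.40-fold above marrow, a direction that turned with spike-in scaling (log2 -0.71). Slc25a45 read 3.72, 0.827 and 2.58, with adult liver 4.49-fold above fetal liver. Slc25a34 was well above background in adult liver alone, at 0.120, and at least 4.54-fold above marrow. That held in 1 of the 5 alternatives that gave a value, namely averaging probes, which leaves a gene with 1 probe unchanged. Slc25a43 was well above background in marrow alone, at 0.0749. Slc25a46, an outer membrane protein of mitochondrial shape, read 12.6, 14.9 and 9.12 and passed 4-fold nowhere.

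**Figure D3:**
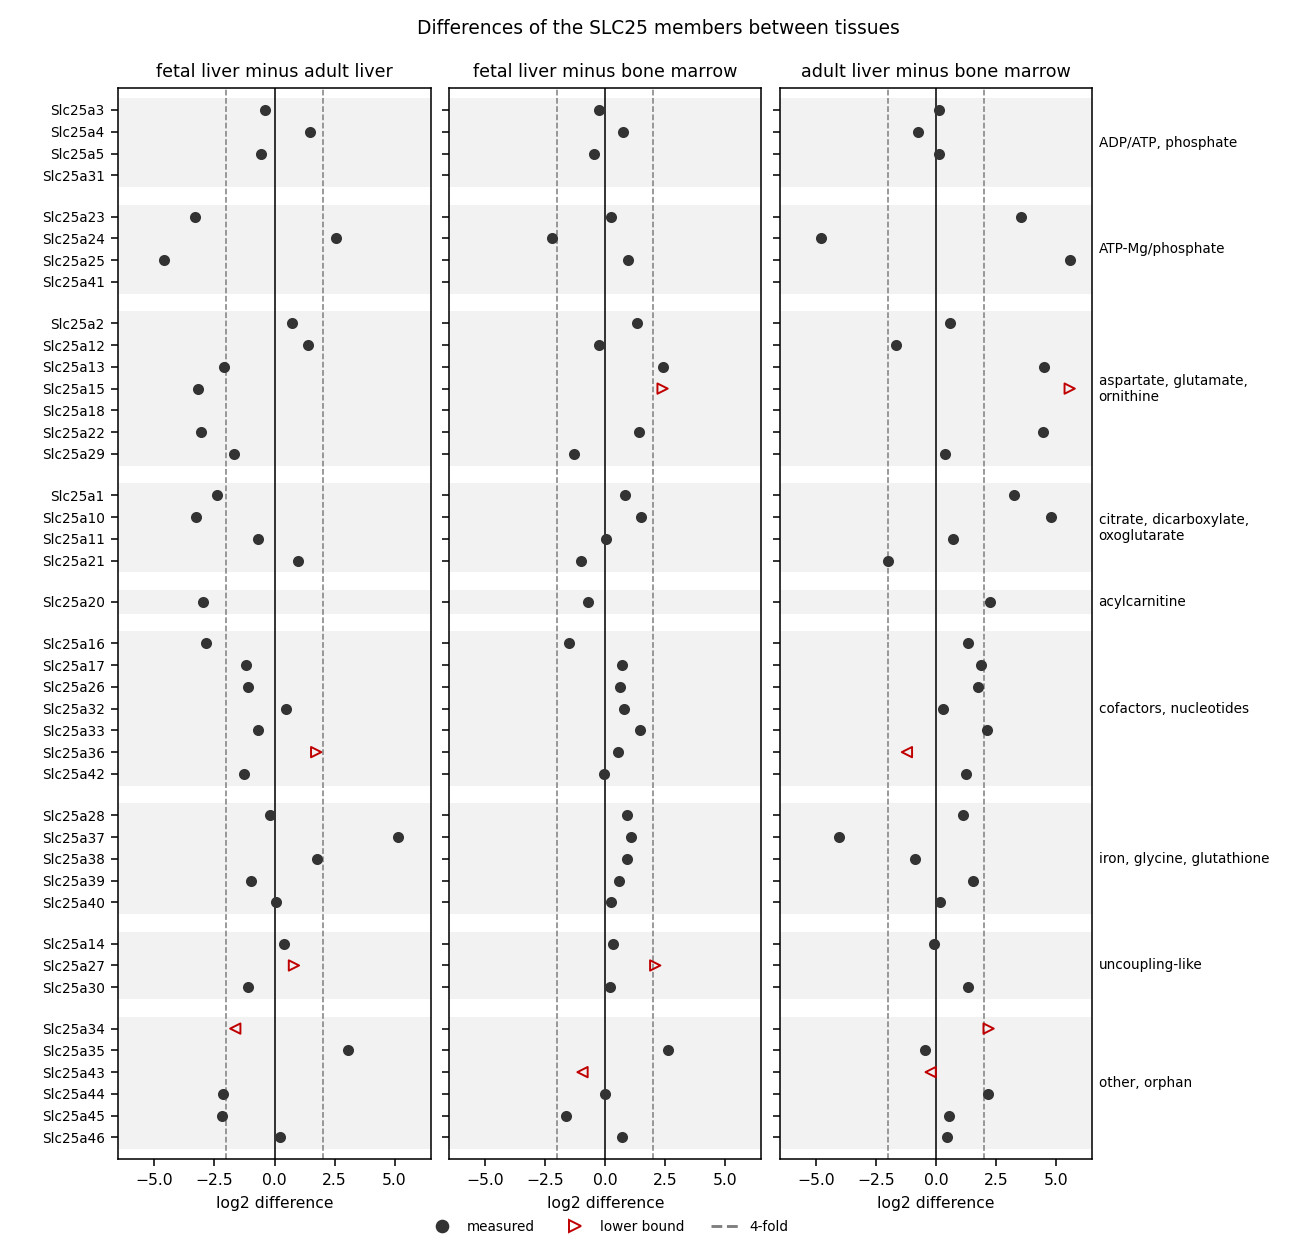
Log2 difference of 41 SLC25 members (x axis) between fetal and adult liver, fetal liver and bone marrow, and adult liver and bone marrow, from 1 array per tissue; dashed lines mark 4-fold and triangles are lower bounds. The members highest in adult liver lie to the left in the left panel and to the right in the right panel, with Slc25a37 and Slc25a24 on the other side; spike-in scaling would move every point of the middle and right panels by -2.31 and -2.85 and turn the direction of 22 and 20 of the 37 members compared.

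Other genes of mitochondrial transport gave a measure of the surroundings. None of 12 genes for importing carriers into the inner membrane (the Tomm and Timm genes) reached 4-fold in any comparison with the scaling used. Of 15 genes for other mitochondrial transport, 14 could be compared. Mpc1, of the pyruvate carrier, was 8.13-fold and Sfxn5 18.9-fold higher in adult than in fetal liver, and Abcb10, an exporter in erythroid mitochondria, was 8.21-fold higher in fetal liver.

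Different probes of 1 gene were the nearest to a repeat, though they share the RNA. Of 21 members with several probes, 12 had at least 2 that were well above background in both fetal and adult liver. The probes had the same direction in 13 of 14 such pairs. The direction was the same in 12 of 13 pairs between adult liver and marrow but in 7 of 16 between fetal liver and marrow. The median gap between probes was 0.62, 1.09 and 0.72 in log2 in that order, and the widest 2.17. Pairs with a lower bound were left out of these values. Among those, probes of Slc25a12 went opposite ways against marrow, and those of Slc25a35 between fetal liver and marrow. Such pairs of Slc25a24 and Slc25a25 had the same direction. No member had probes at least 4-fold in opposite directions.

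**Figure D4:**
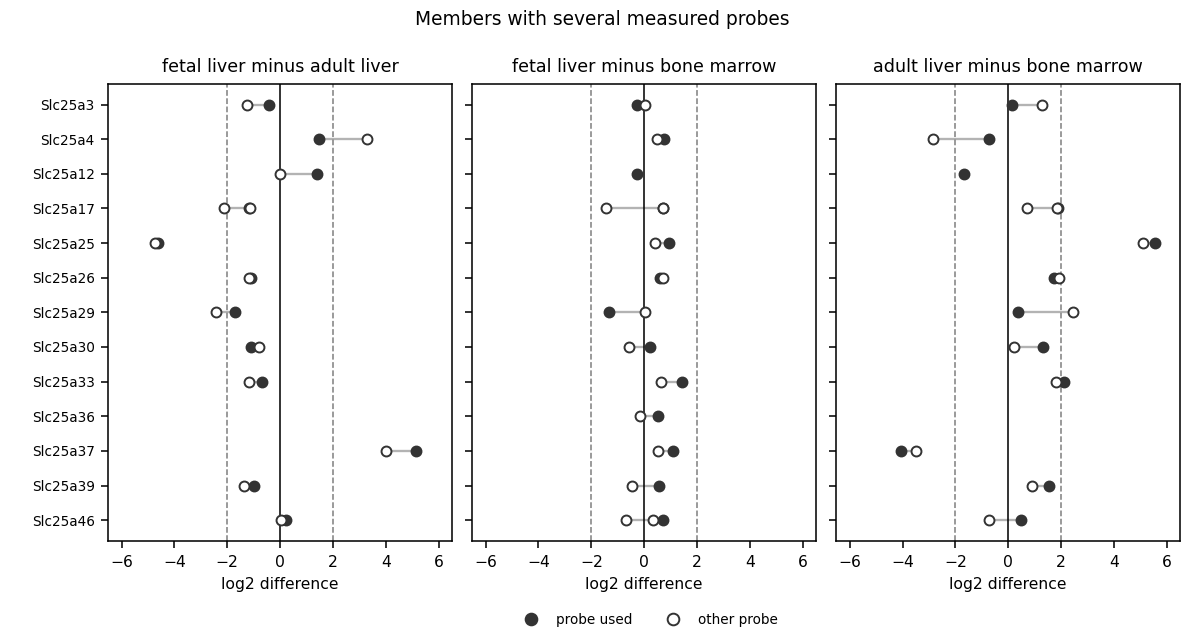
Log2 difference (x axis) by every probe with a measured value on both arrays, for members with several such probes; filled points are the probe used for the gene and open points its other probes, joined by a line, with dashed lines at 4-fold. Slc25a25 and Slc25a37 keep their side of the threshold with each probe shown in the left and right panels, while Slc25a4 crosses it in both; the probes of Slc25a17 and Slc25a29, among others, lie on both sides of 0 in the middle panel.

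RefSeq promoter sequences (GRCm38.p6, 250 bases before to 50 after each start) were held for 32 of the 42 members, as 41 promoters. Their median GC content was 59.7%, beside 52.7% for all 32851 promoters. Short motifs were searched on both strands: AGATAA of GATA factors and CCACACCC of KLF factors, both families known from erythroid genes, CAAAGTCCA of HNF4, known from hepatocytes, and TGACGTCA, the cyclic AMP response element. The motifs were picked with the members' levels known. AGATAA was in 2 of the 41 promoters (11.2% of all promoters), CCACACCC in 3 (3.56%), TGACGTCA in 2 (1.79%) and CAAAGTCCA in none (0.475%). No promoter was held for Slc25a37, nor for Slc25a27, Slc25a35 and Slc25a44, so these members past 4-fold were not searched. A match is a description of these letters and shows no binding. The promoters printed here are those of the members past 4-fold that held a match, so that the match can be seen beside its gene; letters run 5′ to 3′ on the gene's strand and capitals mark the match, which may be the motif or its reverse complement.
Slc25a25: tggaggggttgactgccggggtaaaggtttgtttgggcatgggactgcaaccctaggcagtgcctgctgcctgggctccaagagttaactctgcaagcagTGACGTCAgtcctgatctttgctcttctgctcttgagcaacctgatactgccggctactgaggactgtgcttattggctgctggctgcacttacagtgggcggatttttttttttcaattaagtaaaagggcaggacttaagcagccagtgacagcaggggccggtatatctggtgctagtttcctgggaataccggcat
Slc25a24: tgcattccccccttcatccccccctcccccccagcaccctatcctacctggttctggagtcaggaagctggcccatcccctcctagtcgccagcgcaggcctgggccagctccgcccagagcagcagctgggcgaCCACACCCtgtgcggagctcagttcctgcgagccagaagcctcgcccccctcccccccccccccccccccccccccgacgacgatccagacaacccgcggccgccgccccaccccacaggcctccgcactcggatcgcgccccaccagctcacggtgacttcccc
Slc25a22: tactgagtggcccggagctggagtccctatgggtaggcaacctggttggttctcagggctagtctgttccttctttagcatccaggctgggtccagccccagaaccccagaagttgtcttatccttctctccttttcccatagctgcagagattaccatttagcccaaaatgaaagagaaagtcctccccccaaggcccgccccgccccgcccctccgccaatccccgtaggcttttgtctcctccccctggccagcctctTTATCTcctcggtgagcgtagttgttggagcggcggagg
Slc25a21: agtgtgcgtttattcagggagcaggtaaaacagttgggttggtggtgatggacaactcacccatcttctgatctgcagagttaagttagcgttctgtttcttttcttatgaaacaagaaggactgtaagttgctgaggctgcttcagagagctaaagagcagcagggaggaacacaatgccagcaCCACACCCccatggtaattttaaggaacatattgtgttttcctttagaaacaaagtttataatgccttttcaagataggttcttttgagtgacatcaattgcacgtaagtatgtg
The first is at chr2:32424017-32424316 on the minus strand, 1 of 3 promoters of Slc25a25, with the response element at position -150 from the start. That of Slc25a24, the only member at least 4-fold above both livers in marrow, is at chr3:109122899-109123198 on the plus strand. It has the KLF motif at position -115 and a GC content of 72.3%. That of Slc25a22, high in adult liver, is 1 of 3 promoters of the gene, at chr7:141435326-141435625 on the minus strand with the GATA motif at position 12. That of Slc25a21, 1 of 2 of the gene, is at chr12:57160594-57160893 on the minus strand with the KLF motif at position -65 and a GC content of 41.7%. The other promoters of Slc25a25, Slc25a22 and Slc25a21 held none of the motifs.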

How the data were processed

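RNA of the 3 tissues was labelled with Cy3 and hybridised to 1 array each, per the labels' protocols. The scanner software was Agilent Feature Extraction 10.5.1.1, per the submitters' processing notes. The deposited scanner files give a processed signal intensity per spot, which per the file headers was background-subtracted and spatially detrended, with no normalization across arrays. The authors also deposited a table of ratios to the array's 75th percentile; its normalized column matched each spot's signal error, not its signal (within 2% for all 45018 spots on every array), so it served only as an alternative.

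From the intensities, log2 of the processed signal minus the array's 75th percentile was computed over gene spots with pandas 2.3.3 and numpy 2.4.6 under Python 3.11.15, without control spots and outlier-flagged spots (71 to 80 per array). No spot was saturated. Spots of 1 probe were averaged; their median SD was 0.05 to 0.07 in log2. The 41172 probes were named through a RefSeq table (GRCm38.p6): 24842 by accession, 6045 by symbol, 1796 by an older symbol, and 8489 were not named. The 73 member probes kept the array's gene name, and 55 of 55 with a known gene strand lay on it. The probe well above background on most arrays stood for a gene, ties going to the brightest. A lower bound was taken against the higher of the dim probe's own scaled signal and the lowest scaled signal well above background on that array. Probe positions refer to mm9, as in the array file; exon or UTR positions were not analysed here.

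With 1 array per tissue no test was made; the number of arrays limits the precision. Described in full were members at least 4-fold apart in a comparison, with the highest signal of their role group on any array, or with probes opposed at 4-fold; at most 3 genes were named per pathway list. The values of 1 member are not reported here, though counts and medians include it. Members, gene lists and markers were chosen with earlier results of these data known. Alternatives were normexp background correction (offset 50, limma 3.58.1 in R 4.3.3), scaling to the median, quantiles or 7 spike-in probes, a stricter filter, averaging probes, a 2-fold threshold and the authors' column.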

Additional observations from a re-analysis of the deposited data

How the results depend on the processing

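No paired analysis was possible because each tissue has 1 array, and for the same reason no replicate could be left out. Of the 33 differences of at least 4-fold, 20 still reached 4-fold in the same direction with normexp background correction. The count was 26 of 33 with median scaling, 29 of 33 with quantile normalization and 16 of 31 with spike-in scaling. It was 28 of 33 with the mean of a gene's probes, which leaves genes with 1 probe unchanged. It was 29 of 33 with the authors' column, which follows the signal of bright spots by construction. The stricter filter (well above background on all 3 arrays) only drops genes and changes no value, so its 28 of 28 was fixed in advance. Directions were kept in these alternatives except with spike-ins, where adult liver against marrow turned for Slc25a20 (-0.60), Slc25a33 (-0.74) and Slc25a44 (-0.71, all log2); that scaling moves every difference between 2 arrays by 1 constant. The 9 differences that reached 4-fold in all 6 alternatives other than the authors' column belong to Slc25a10, Slc25a20, Slc25a22, Slc25a24, Slc25a25 and Slc25a37. The stricter filter could change none of these. Averaging probes could not change those of Slc25a10, Slc25a20 and Slc25a22, which have 1 probe each. For members higher in fetal against adult liver, the count of 3 became 1 with normexp and 6 with spike-ins, and the 11 higher in adult liver became 6 and 7. Against marrow, the 4 members higher in fetal liver became 2 with normexp, quantile normalization, the stricter filter, the mean of probes and the authors' column, 1 with median scaling and 0 with spike-ins, and the 1 higher in marrow became 2 with median scaling and 16 with spike-ins. The 11 higher in adult liver than marrow became 7 with median scaling and 2 with spike-ins, where 19 were higher in marrow. The medians became -1.75 for fetal liver and -2.13 for adult liver against marrow with spike-ins. At 2-fold, 7 members were higher in fetal and 17 in adult liver, the counts against marrow were 10 for fetal liver with 5 for marrow, and 19 for adult liver with 5 for marrow. Apart from the shift with spike-ins and the smaller number of genes under the stricter filter, the cause was not tested. Signals near background limit Slc25a16, Slc25a21 and Slc25a23, and Slc25a15, Slc25a27, Slc25a34, Slc25a36 and Slc25a43, whose bounds rest on dim probes.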

Other observations

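Some carriers of the family stand on the array under older names and so fall outside the naming rule; they were found through the RefSeq table. Slc25a47 (AI132487 on the array), known as a carrier of liver mitochondria, read a scaled signal of 181 in adult and 0.747 in fetal liver and 0.159 in marrow. Adult liver was 242-fold above fetal liver and 1138-fold above marrow, more than any member selected by name. Slc25a48 (AU042651) was well above background in adult liver alone, at 0.278, at least 7.18-fold above fetal liver and 10.5-fold above marrow. Slc25a51 (Mcart1), the NAD carrier of the matrix, read 5.17, 9.33 and 12.0 and reached 4-fold in no comparison. Slc25a54 (4930443G12Rik) was not well above background on any array.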
